A study of Mus musculus with 12 samples.

Results

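The genes described here are 40 genes of the NRF2 antioxidant system of mouse liver: the regulators of the transcription factor NRF2, its best known target genes, and enzymes that remove peroxides, superoxide and reactive foreign compounds. They were chosen by gene symbol from a written list, which was drawn up with earlier results of these data known. All 40 were found among the 54532 rows of the deposited table of gene counts. All 40 also passed the filter on low counts, which kept 14686 genes, so none is missing from any comparison. RNA was sequenced from whole liver of wild-type mice 9 days after an adenovirus was given, with 12 libraries in 4 groups of 3. Ad_GFP mice received a control adenovirus, ANG8 mice an adenovirus for overexpression of ANGPTL8, shCtrl mice a control short hairpin adenovirus, and shANG8 mice an adenovirus for knockdown of ANGPTL8. ANGPTL8 is a protein secreted by liver and fat that takes part in the control of blood triglycerides. Every group therefore carried an adenovirus, and no liver without one was analysed here. Strain, sex, age, viral dose, route and the species of the ANGPTL8 sequence were not given, and the labels do not say whether the 3 libraries of a group came from 3 mice. P-values therefore measure the spread between these libraries, which may be partly technical.

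NRF2, encoded by Nfe2l2, is held in the cytoplasm and marked for destruction by its partner KEAP1. When reactive compounds modify KEAP1, NRF2 accumulates, pairs with a small MAF protein such as MAFG in the nucleus, and binds antioxidant response elements of genes for glutathione synthesis, thioredoxin recycling, NADPH supply and detoxication. The liver, which handles most foreign compounds, expresses many of these enzymes at high levels.

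Levels are given as CPM, the reads of a gene relative to the scaled size of its library, in the order of replicates 1, 2 and 3. Fold changes are on the log2 scale with a standard error (SE). A gene was called changed at a Benjamini-Hochberg adjusted p under 0.05 over all 14686 genes, by the quasi-likelihood test of edgeR with 3 libraries against 3. Libraries held 12537083 to 15144312 counts. The share of counts on genes of the mitochondrial genome was 39.0% and 43.8% in ANG8 replicates 1 and 2, above the range of 19.3% to 34.9% of all other libraries. Among the shANG8 libraries, replicate 3 stood apart and was the highest of the 3 for 31 of the 40 genes (77.5%), against 31.5% of all tested genes. Replicate 3 was also the highest of its group for 30 of the 40 genes with ANG8, 25 with shCtrl and 23 with Ad_GFP. Results that rest on shANG8 replicate 3 are given with and without it. Hepatocyte markers Alb, Apoa1 and Ttr were abundant in every group, with group means of 22439.9 CPM or more for Alb. Angptl8 itself averaged 89.1 CPM with Ad_GFP, 217 with ANG8, 299 with shCtrl and 122 with shANG8, and its fall in shANG8 did not pass the test (adjusted p = 0.235).

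In livers given the ANG8 virus, 11 of the 40 genes (27.5%) rose and 1 fell, while 28 did not pass the test. Across all tested genes, 13.5% were called, of which 7.08% of all genes rose and 6.39% fell. The genes that rose were Srxn1, Gclc, Gsr, Txnrd1, Prdx6, Pgd, Hmox1, Ugdh, Gstm2, Gstm4 and Gpx4, and the gene that fell was Mgst1. The median log2 fold change of the 40 genes was 0.92, and that of all tested genes was -0.00. In 26 of the 40 genes (65.0%) all 3 ANG8 libraries lay above all 3 Ad_GFP libraries, and in 3 (Gsta3, Mgst1 and Sod2) they lay below. Among all tested genes 34.1% did not overlap, with 17.9% above and 16.2% below. In the knockdown arm, 0 of the 40 genes passed the test, and 0.191% of all tested genes did (0.0613% up and 0.129% down).

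**Figure D1:**
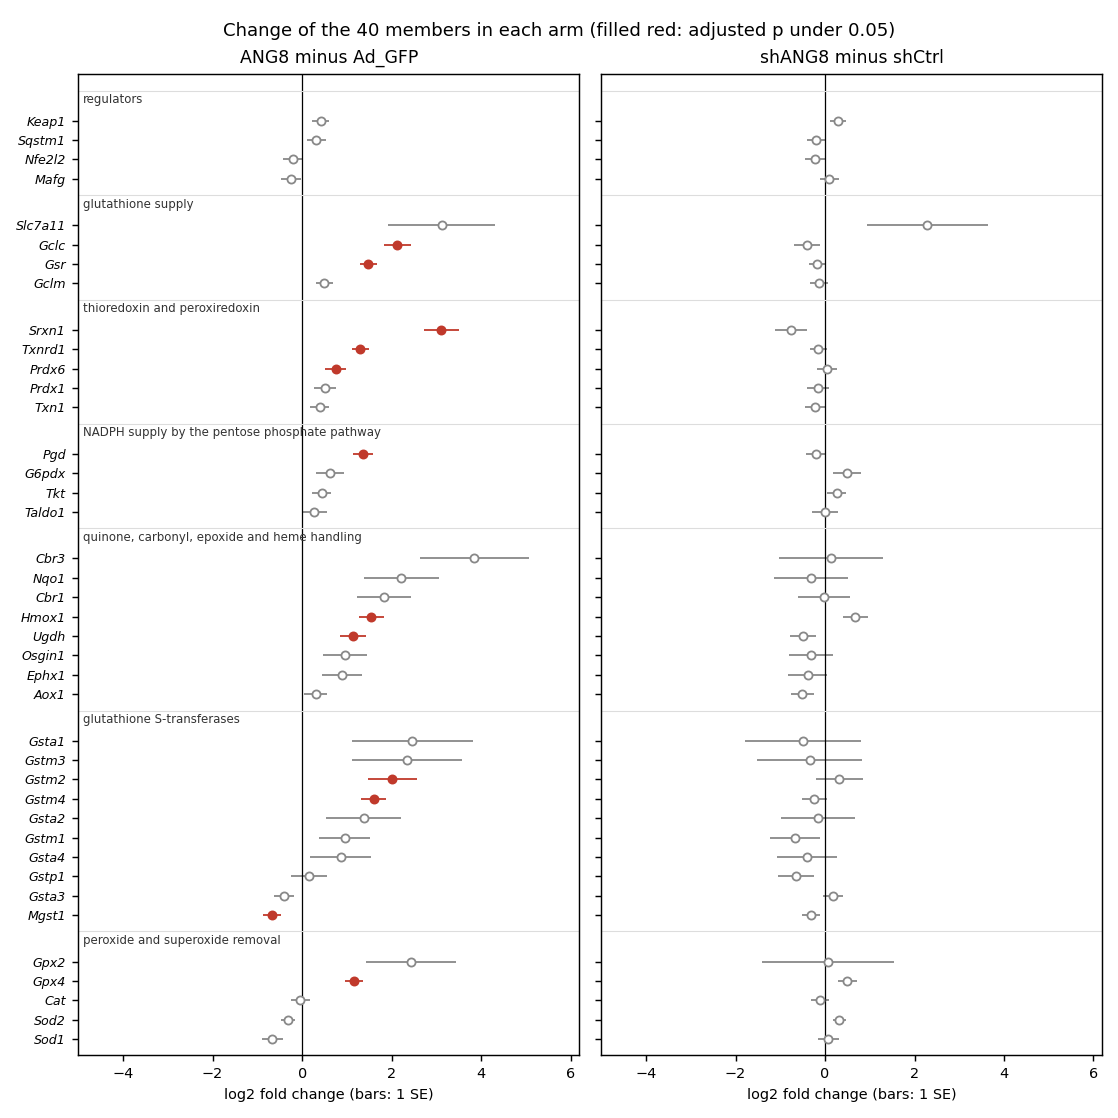
Log2 fold change (x axis, points, with bars of 1 SE) of each of the 40 genes, grouped by role, for ANG8 minus Ad_GFP on the left and shANG8 minus shCtrl on the right. Filled red points passed the test: 11 to the right of 0 and 1 to the left in the overexpression arm, and 0 in the knockdown arm.

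Markers of other cell types also moved between these groups. Of 13 macrophage and Kupffer cell markers, 10 rose under the ANG8 virus, and their summed level was 465 to 651 CPM with Ad_GFP, 1134 to 1470 with ANG8, 369 to 429.5 with shCtrl and 324 to 612 with shANG8. Of 10 T and NK cell markers, 5 rose and 1 (Cd4) fell, with sums of 46.8 to 67.5 CPM in Ad_GFP and 122 to 141 in ANG8. Their sums were 65.0 to 83.1 CPM in shCtrl and 39.2 to 52.0 in shANG8, without overlap. In the knockdown arm all 10 had negative fold changes, 5 had an unadjusted p under 0.05 by edgeR, and 0 were called. Of 6 markers of dividing cells, 3 rose, with sums of 49.3 to 63.1 and 129 to 182 CPM. Of 10 hepatocyte markers, 6 fell. Sums of the 10 were 41546 to 62716 CPM in Ad_GFP and 23237, 24611 and 49619.9 in ANG8, which overlap through ANG8 replicate 3 alone. No tested marker of neutrophils, B cells, endothelial, stellate, bile duct or red blood cells was called. Summed red blood cell markers were 112, 153 and 1774 CPM in ANG8 replicates 1, 2 and 3, and 204 to 518 in Ad_GFP. The filter on low counts kept only 2 of 6 neutrophil markers and 5 of 6 bile duct markers, so the rest had no test. The mean of the neutrophil gene Ly6g was 0 in the ANG8, shCtrl and shANG8 groups, as was that of Mpo in ANG8 and shCtrl. What part these cell types had in the changes of the 40 genes was not tested. In bulk liver RNA, fewer cells of a type and less RNA per cell cannot be told apart.

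The 4 regulators were described first, because the activity of the system depends on them. None of Nfe2l2, Keap1, Mafg or Sqstm1 passed the test in any comparison. Nfe2l2 (ENSMUSG00000015839, chr2:75675513-75704641) stood at 50.4, 88.5 and 60.3 CPM in Ad_GFP, 58.2, 51.6 and 62.3 with the ANG8 virus, 58.8, 50.4 and 52.5 with shCtrl and 30.01, 56.8 and 51.5 with shANG8. The groups overlapped throughout, and the log2 fold change of Nfe2l2 under the ANG8 virus was -0.21 (SE 0.23, adjusted p = 0.601). Keap1 (ENSMUSG00000003308, chr9:21229730-21239361), which encodes the inhibitor of NRF2, measured 48.9, 41.4 and 43.04 CPM in Ad_GFP and 61.2, 64.7 and 51.9 in ANG8, without overlap, against 50.6, 56.2 and 34.6 in shCtrl and 65.9, 51.2 and 55.3 in shANG8. The fold change of Keap1 was 0.42 (SE 0.18, adjusted p = 0.149), and 10.9% of its exon bases lie opposite another gene, so its counts are uncertain where strand was not used.

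Mafg (ENSMUSG00000051510, chr11:120625117-120633600), the small MAF partner, was 121, 146 and 109 CPM in Ad_GFP, 116, 123 and 77.9 with the ANG8 virus, 106, 119.5 and 91.1 with shCtrl and 91.03, 151 and 97.4 with shANG8. Sqstm1 (ENSMUSG00000015837, chr11:50199366-50210827), whose product p62 is an autophagy receptor that binds KEAP1 and is itself an NRF2 target, was 302, 189.9 and 233 CPM in Ad_GFP, 278, 257 and 369 with the ANG8 virus, 360.3, 350.3 and 328 with shCtrl and 326, 231 and 344 with shANG8. The ANG8 and Ad_GFP libraries of both genes overlapped, with fold changes of -0.25 (SE 0.22, adjusted p = 0.507) for Mafg and 0.32 (SE 0.21, adjusted p = 0.349) for Sqstm1. All 3 shCtrl libraries of Sqstm1 lay above the Ad_GFP libraries. As with Keap1, the counts of Sqstm1 are uncertain where strand was not used, since 17.3% of its exon bases lie opposite another gene. RNA of the regulators says nothing of the amount or location of the NRF2 protein, which was not measured.

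**Figure D2:**
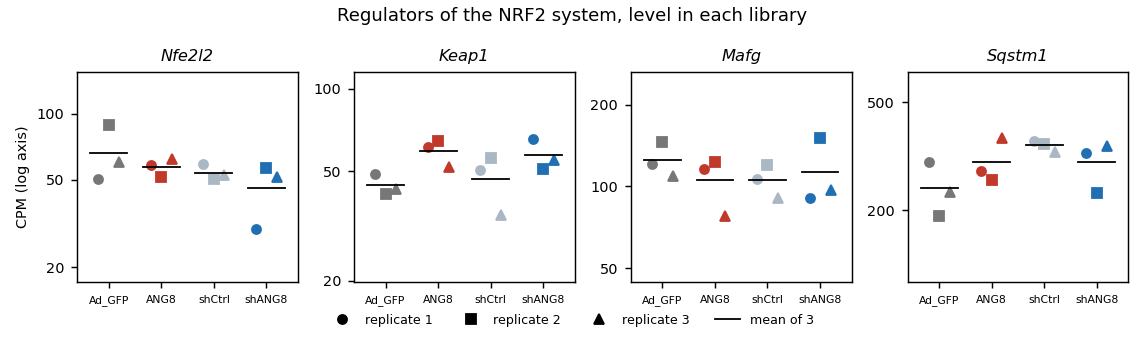
Level of Nfe2l2, Keap1, Mafg and Sqstm1 (y axis, CPM, log axis) in each of the 12 libraries, with the mean of 3 as a line and the replicate number as the shape of the point. Keap1 was 41.4 to 48.9 CPM in Ad_GFP and 51.9 to 64.7 in ANG8, and the other 3 genes overlapped between these groups.

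Glutathione, the main small antioxidant of the liver, is made and recycled by the next 4 genes, of which Gclc and Gsr rose and Slc7a11 and Gclm did not pass the test. Gclc (ENSMUSG00000032350, chr9:77754535-77794485) encodes the catalytic subunit of glutamate-cysteine ligase, the rate-limiting enzyme of glutathione synthesis. Its level was 305, 218 and 383 CPM in Ad_GFP, 1366, 1205 and 1399 with the ANG8 virus, 453, 327 and 448 with shCtrl and 243, 195 and 487 with shANG8. The 3 ANG8 libraries were above all 9 others, and Gclc rose 4.38-fold over Ad_GFP (log2 2.13, SE 0.30, adjusted p = 0.000428). Gsr (ENSMUSG00000031584, chr8:33652523-33698163) encodes glutathione reductase, which returns oxidised glutathione to its reduced form with NADPH. Its libraries stood at 76.2, 62.4 and 82.4 CPM in Ad_GFP, 206, 209.9 and 202 with the ANG8 virus, 87.3, 86.2 and 101 with shCtrl and 67.1, 72.4 and 102 with shANG8. The ANG8 libraries lay close together and were again above all 9 others, and Gsr rose by 1.48 on the log2 scale (SE 0.18, adjusted p = 0.000111).

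Gclm, the modifier subunit that pairs with the Gclc product, was 235, 158 and 254 CPM in Ad_GFP and 276, 304 and 333 in ANG8. The groups did not overlap, but Gclm did not pass the adjusted threshold (0.50, SE 0.20, adjusted p = 0.103). Slc7a11, the cystine importer, was near the lower end of detection in control livers, with 0.127, 0.518 and 0.807 CPM in Ad_GFP against 4.201, 4.67 and 3.88 in ANG8. It did not pass the test (3.12, SE 1.19, adjusted p = 0.106), and it stood at 0.136, 0 and 0.532 CPM in shCtrl and 3.18, 0.0787 and 0 in shANG8, where replicate 1 alone was high.

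In the thioredoxin and peroxiredoxin group, which reduces oxidised protein thiols and peroxides, Srxn1, Txnrd1 and Prdx6 rose and Txn1 and Prdx1 did not pass. Srxn1 (ENSMUSG00000032802, chr2:152105516-152111376) encodes sulfiredoxin, which repairs overoxidised peroxiredoxins. Across the libraries it measured 107, 70.3 and 137 CPM in Ad_GFP, 863, 846 and 1004 with the ANG8 virus, 165, 131 and 133 with shCtrl and 51.6, 50.9 and 149.5 with shANG8. The lowest ANG8 library exceeded the highest of the 9 others, and Srxn1 rose 8.65-fold (log2 3.11, SE 0.39, adjusted p = 0.000398), the highest fold of the 12 genes that passed. The 250 bases before the start of Srxn1, shown because this gene had that fold, follow from RefSeq on the plus strand of GRCm38.p6 (chr2:152105274-152105523). Capitals mark TGAGTCA at positions -102 and -45 from the start, and TGAGNNNGC, read on either strand, at -158 and -45.
Srxn1: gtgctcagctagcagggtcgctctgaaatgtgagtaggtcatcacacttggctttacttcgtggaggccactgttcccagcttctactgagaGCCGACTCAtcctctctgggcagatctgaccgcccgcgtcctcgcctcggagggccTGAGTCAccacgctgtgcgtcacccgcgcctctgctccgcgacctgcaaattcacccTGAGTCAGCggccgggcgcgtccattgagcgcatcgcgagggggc

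Txnrd1 (ENSMUSG00000020250, chr10:82833951-82897712) encodes cytosolic thioredoxin reductase, which recharges thioredoxin with NADPH. Its values were 132, 111 and 137 CPM in Ad_GFP, 342, 312 and 281 with the ANG8 virus, 181, 165 and 179.5 with shCtrl and 136, 127 and 211 with shANG8. The ANG8 libraries were above the rest, and Txnrd1 rose by 1.30 (SE 0.19, adjusted p = 0.000540). Prdx6 (ENSMUSG00000026701, chr1:161240112-161251219), a peroxiredoxin that reduces phospholipid peroxides, was 299, 239.8 and 265 CPM in Ad_GFP, 386, 331 and 632 with the ANG8 virus, 284, 375 and 439 with shCtrl and 386, 348 and 398 with shANG8. The ANG8 and Ad_GFP libraries did not overlap, yet ANG8 replicate 3 was far above the other two, and both hairpin groups reached the level of ANG8 replicates 1 and 2. Prdx6 rose by 0.75 (SE 0.23, adjusted p = 0.0385), a call that ended without ANG8 replicate 3, where the fold change was 0.40 (adjusted p = 0.230), with the compared groups alone (0.0574), without ANG8 replicate 1 (0.0594), without any one of the 3 Ad_GFP libraries (0.0656 to 0.140) and without shCtrl replicate 2 (0.0589). Txn1, thioredoxin itself, and Prdx1, a peroxiredoxin of the cytosol, had ANG8 and Ad_GFP libraries that overlapped, with fold changes of 0.39 (SE 0.22, adjusted p = 0.276) and 0.51 (SE 0.24, adjusted p = 0.174).

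Among 4 enzymes of the pentose phosphate pathway, which supplies the NADPH used by the reductases, Pgd rose and G6pdx, Taldo1 and Tkt did not pass. Pgd (ENSMUSG00000028961, chr4:149149991-149166771) encodes 6-phosphogluconate dehydrogenase, a NADPH-producing step. It was 73.3, 80.6 and 79.2 CPM in Ad_GFP, 202, 165 and 234 with the ANG8 virus, 75.5, 79.7 and 105 with shCtrl and 63.4, 56.8 and 106 with shANG8. Again the ANG8 libraries lay above all 9 others, and Pgd rose by 1.37 (SE 0.22, adjusted p = 0.000955). G6pdx, the entry enzyme of the pathway, was lower in level and did not pass, with 13.9, 18.6 and 12.6 CPM in Ad_GFP and 21.7, 20.8 and 26.8 in ANG8 (0.63, SE 0.31, adjusted p = 0.216). Fold changes of the nonoxidative enzymes were 0.27 (SE 0.29, adjusted p = 0.593) for Taldo1 and 0.44 (SE 0.21, adjusted p = 0.186) for Tkt. G6pdx and Taldo1 share sequence with other loci, and their counts are uncertain to that extent.

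The next list held 8 genes, most of them for enzymes that handle quinones, carbonyls, epoxides or heme, along with Ugdh and Osgin1. Hmox1 and Ugdh rose and the other 6 did not pass, although the median fold change of the 8 was 1.34. Hmox1 (ENSMUSG00000005413, chr8:75093621-75100589) encodes heme oxygenase 1, which breaks down heme and is abundant in Kupffer cells. Its values were 13.5, 9.25 and 14.4 CPM in Ad_GFP, 39.5, 27.3 and 41.9 with the ANG8 virus, 15.4, 11.6 and 10.9 with shCtrl and 29.03, 12.1 and 19.3 with shANG8. The ANG8 libraries were above the Ad_GFP and shCtrl libraries but overlapped with shANG8, whose replicate 1 was above ANG8 replicate 2. Hmox1 rose by 1.55 (SE 0.28, adjusted p = 0.00222), and the summed macrophage and Kupffer cell markers rose between the same groups, from 551 ± 94.0 to 1246.5 ± 194 CPM (mean ± SD, n = 3). Their part in the rise of Hmox1 was not tested.

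Ugdh (ENSMUSG00000029201, chr5:65413221-65435949) encodes UDP-glucose dehydrogenase, which makes the sugar donor of glucuronidation. It was 243, 251 and 303 CPM in Ad_GFP, 619.6, 624 and 508 with the ANG8 virus, 319.7, 300.2 and 442 with shCtrl and 153, 194 and 409 with shANG8. The ANG8 libraries were above all others, and Ugdh rose by 1.14 (SE 0.29, adjusted p = 0.0167). The call ended at adjusted p of 0.0518 to 0.0705 when ANG8 replicate 1, ANG8 replicate 2, Ad_GFP replicate 1 or Ad_GFP replicate 2 was left out, and at 0.0533 with the mitochondrial share as a covariate.

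Nqo1, the quinone reductase often used as a readout of NRF2, was 12.9, 11.03 and 27.6 CPM in Ad_GFP, 60.6, 70.8 and 109 with the ANG8 virus, 10.1, 12.2 and 33.7 with shCtrl and 5.15, 4.72 and 34.7 with shANG8. All ANG8 libraries were above the rest, but the test was not passed (2.22, SE 0.84, adjusted p = 0.126), and replicate 3 was the highest of its group each time. Cbr3, a carbonyl reductase, was 4.998, 5.26 and 16.9 CPM in Ad_GFP, 122, 128 and 143 with the ANG8 virus, 7.74, 7.04 and 14.1 with shCtrl and 1.67, 0.236 and 29.5 with shANG8. Its fold change of 3.85 was the largest of the 40 genes, with an SE of 1.22 (adjusted p = 0.0759), and the 3 shANG8 libraries ran from 0.236 to 29.5 CPM. Cbr1, its neighbour on chromosome 16 and also a carbonyl reductase, was 111, 88.5 and 222 CPM in Ad_GFP, 443, 371 and 691 with the ANG8 virus, 120.3, 114 and 187 with shCtrl and 61.9, 73.5 and 279 with shANG8. Cbr1 did not pass either (1.84, SE 0.60, adjusted p = 0.0750). The epoxide hydrolase Ephx1 (0.89, SE 0.44, adjusted p = 0.220), the NRF2 target Osgin1 (0.95, SE 0.50, adjusted p = 0.249) and the aldehyde oxidase Aox1 (0.31, SE 0.26, adjusted p = 0.488) completed the group. ANG8 and Ad_GFP libraries of Aox1 overlapped, and those of Ephx1 and Osgin1 did not.

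The 10 glutathione S-transferases, which attach glutathione to reactive compounds, included 2 genes that rose, Gstm2 and Gstm4, and 1 that fell, Mgst1. Gstm4 (ENSMUSG00000027890, chr3:108040408-108044894) was 61.8, 78.5 and 90.4 CPM in Ad_GFP, 231, 238 and 229 with the ANG8 virus, 102, 125 and 134 with shCtrl and 64.3, 74.6 and 167 with shANG8. The ANG8 libraries lay close together and above the rest, and Gstm4 rose by 1.60 (SE 0.28, adjusted p = 0.00231). Gstm2 (ENSMUSG00000040562, chr3:107981702-107986453) was 42.4, 40.2 and 62.1 CPM in Ad_GFP, 134, 115 and 337 with the ANG8 virus, 48.3, 66.3 and 129 with shCtrl and 67.2, 69.5 and 168 with shANG8. ANG8 replicate 3 was far above ANG8 replicates 1 and 2, which lay below shANG8 replicate 3. Gstm2 rose by 2.02 (SE 0.55, adjusted p = 0.0401), a call that ended without any one of the Ad_GFP libraries (adjusted p of 0.0661 to 0.153), without ANG8 replicate 1 (0.0573) or shCtrl replicate 2 (0.0579), and with no filter on low counts (0.0987). It also ended without ANG8 replicate 3, where the fold change was 1.35 (adjusted p = 0.119).

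Mgst1 (ENSMUSG00000008540, chr6:138140316-138156755), a membrane-bound transferase abundant in hepatocytes, was 2696, 2066 and 2519 CPM in Ad_GFP, 1371, 1407 and 1795 with the ANG8 virus, 3299.8, 3293 and 3543 with shCtrl and 3146, 2288 and 2739 with shANG8. The ANG8 libraries were below all 9 others, and Mgst1 fell by 0.67 on the log2 scale (SE 0.20, adjusted p = 0.0358). The call ended with total counts in place of the scaling factors (adjusted p = 0.0926), with the mitochondrial share as a covariate (0.0610), and without Ad_GFP replicate 1 (0.121), Ad_GFP replicate 3 (0.0922), ANG8 replicate 1 (0.144), ANG8 replicate 2 (0.126) or shCtrl replicate 2 (0.0620). Of 10 hepatocyte markers 6 fell in the same comparison, and their part in the fall of Mgst1 was not tested.

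The other 7 transferases did not pass. Gstm1, the most abundant of the 40 genes per kilobase, was 4121, 3604 and 7092 CPM in Ad_GFP, 8147, 7889.8 and 12612 with the ANG8 virus, 6279.7, 5490.3 and 9286 with shCtrl and 1594, 2286 and 9282 with shANG8. The ANG8 libraries were above Ad_GFP, but ANG8 replicates 1 and 2 were below replicate 3 of shCtrl and of shANG8 (0.95, SE 0.56, adjusted p = 0.310). Gstm3 was 187, 242 and 748 CPM in Ad_GFP, 1631, 1405 and 2945 with the ANG8 virus, 395, 299 and 743 with shCtrl and 31.2, 72.4 and 1029 with shANG8. Its fold change was 2.35 (SE 1.23, adjusted p = 0.263). Gsta1, an alpha-class transferase, was 49.5, 62.6 and 152 CPM in Ad_GFP, 381, 265 and 808 with the ANG8 virus, 78.99, 64.4 and 120.5 with shCtrl and 1.74, 8.65 and 176 with shANG8 (2.46, SE 1.35, adjusted p = 0.287). In all 3 genes the ANG8 libraries stood above Ad_GFP and replicate 3 was the highest of every group. Gsta2 (1.38, SE 0.84, adjusted p = 0.336), Gsta4 (0.86, SE 0.68, adjusted p = 0.470) and Gstp1 (0.16, SE 0.41, adjusted p = 0.846) also had positive fold changes, and Gsta3 had a negative one (-0.41, SE 0.22, adjusted p = 0.253). Near-identical copies make several of these counts uncertain: 89.7% of the 50-base words of Gsta1 occur elsewhere among transcripts, 49.8% of Gsta2, 46.0% of Gstp1, 28.8% of Gstm3 and 18.9% of Gstm1.

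Of 5 enzymes that remove peroxide and superoxide, Gpx4 rose and the other 4 did not pass, with a median fold change of -0.04 over the 5. Gpx4 (ENSMUSG00000075706, chr10:80047166-80056439), which reduces lipid peroxides within membranes and guards against ferroptosis, was 259, 231 and 308 CPM in Ad_GFP, 505, 604 and 678 with the ANG8 virus, 267, 272 and 238 with shCtrl and 340.4, 280.3 and 479 with shANG8. The ANG8 libraries were above the rest, and Gpx4 rose by 1.16 (SE 0.21, adjusted p = 0.00185). A pseudogene copy shares 39.0% of its 50-base words, so its counts are uncertain to that extent. Sod1, the copper-zinc superoxide dismutase, was 872, 682 and 810.01 CPM in Ad_GFP and 424, 348 and 717 in ANG8, with overlap through ANG8 replicate 3 (-0.67, SE 0.24, adjusted p = 0.0729). Sod2, the mitochondrial form, was 149.6, 122 and 139 CPM in Ad_GFP and 95.97, 111 and 122 in ANG8, without overlap (-0.32, SE 0.15, adjusted p = 0.192). Catalase, encoded by Cat, overlapped between the groups (-0.04, SE 0.20, adjusted p = 0.929). Gpx2, a glutathione peroxidase better known from the gut, was near the lower end of detection, with 0, 0.3702 and 1.61 CPM in Ad_GFP and 2.03, 2.13 and 6.61 in ANG8 (2.43, SE 1.01, adjusted p = 0.128). Counts of Sod1, Sod2 and Gpx2 are uncertain as well, since 23.1%, 22.2% and 18.9% of their 50-base words occur in other transcripts.

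**Figure D3:**
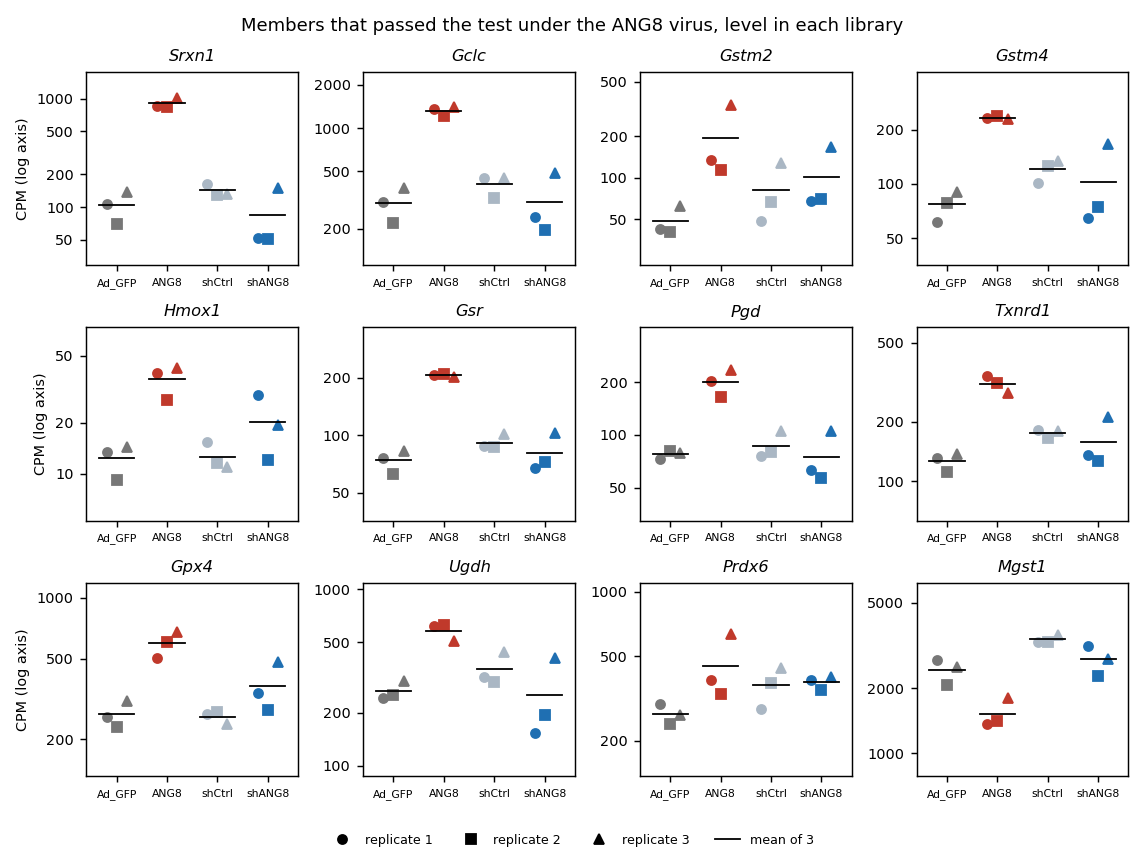
Level (y axis, CPM, log axis) in each of the 12 libraries of the 12 genes that passed the test in ANG8 against Ad_GFP, with the mean of 3 as a line and the replicate number as the shape of the point. Srxn1 went from a mean of 104 CPM in Ad_GFP to 904 in ANG8, while Mgst1 went from 2427 to 1524.

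Of these 12 calls 8, those of Srxn1, Gclc, Gsr, Txnrd1, Pgd, Gstm4, Hmox1 and Gpx4, held in all 20 alternative fits, which included DESeq2, limma voom and leaving out each library in turn. With the mitochondrial share as a covariate 14 of the 40 genes rose and 0 fell.

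Compared per kilobase of exon, the levels covered a wide range. In Ad_GFP livers the order began with Gstm1 at 3353 ± 1278 CPM per kilobase (mean ± SD, n = 3), Gstp1 at 1472 ± 423, Mgst1 at 1206 ± 161 and Cat at 838 ± 84.9. Gstp1 and Mgst1 differed by less than their spread. The place of Gstp1 also rests on its deposited length of 757 bases, whereas its exons cover 1548 bases in the GENCODE vM21 annotation. With the longer length its level per kilobase would be lower. It ended with Gpx2 at 0.205 ± 0.262 and Slc7a11 at 0.0348 ± 0.0245. The genes that rose lay between, from Gpx4 at 154 ± 22.6 through Gclc at 80.2 ± 21.9 and Srxn1 at 37.1 ± 11.8 to Hmox1 at 7.07 ± 1.56. In ANG8 livers Gclc stood at 351 ± 27.6, Gpx4 at 345 ± 50.4 and Srxn1 at 321 ± 30.9 CPM per kilobase, 3 levels whose spreads overlap.

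Knockdown of ANGPTL8 was compared with its own control virus. By edgeR 0 of the 40 genes passed the test, 2 had an unadjusted p under 0.05 (Hmox1 and Gpx4, both with positive fold changes), and DESeq2 and limma voom each called 0. The median fold change was -0.16. Gpx4 and Sod2 lay above shCtrl in all 3 shANG8 libraries and Mgst1 below, with 37 genes overlapping, while among all tested genes 12.9% did not overlap, 6.16% above and 6.78% below. Fold changes were -0.77 (SE 0.36, adjusted p = 0.647) for Srxn1, -0.41 (SE 0.29, adjusted p = 0.783) for Gclc, 0.67 (SE 0.28, adjusted p = 0.560) for Hmox1 and 0.50 (SE 0.20, adjusted p = 0.549) for Gpx4.

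For some genes, Srxn1 and Gclc included, shANG8 replicate 3 was near or above the shCtrl level while replicates 1 and 2 were below it. For Srxn1 the 3 shANG8 libraries were 51.6, 50.9 and 149.5 CPM against 165, 131 and 133 in shCtrl, and for Gstm1 they were 1594, 2286 and 9282 against 6279.7, 5490.3 and 9286. Hmox1 and Gpx4 did not show this. Hmox1 stood at 29.03, 12.1 and 19.3 CPM in shANG8 against 15.4, 11.6 and 10.9 in shCtrl. Gpx4 stood at 340.4, 280.3 and 479 CPM against 267, 272 and 238. Without shANG8 replicate 3 their fold changes were 0.70 (SE 0.32) for Hmox1 and 0.26 (SE 0.20) for Gpx4. With shANG8 replicate 3 left out, Srxn1 fell by 1.48 on the log2 scale (SE 0.25, adjusted p = 0.0141) and Gstm1 fell by 1.86 (SE 0.36, adjusted p = 0.0351), and no other of the 40 genes passed. That fit leaves shANG8 with replicates 1 and 2, whose spread is pooled with that of the other groups. Replicate 3 was set apart for its high levels of most of these same genes. Leaving it out thus lowers their shANG8 levels and tends to lower their spread. The adjusted p-values and counts without it are therefore a description and not a test. Without that library Ephx1 had a fold change of -1.26 (SE 0.27, adjusted p = 0.0614), Ugdh of -1.03 (SE 0.22, adjusted p = 0.0675), Gsta1 of -4.08 (SE 0.91, adjusted p = 0.187) and Gstm3 of -3.21 (SE 0.79, adjusted p = 0.204). In the overexpression comparison, which does not use the shANG8 libraries except for the shared spread, leaving it out raised the count of genes that rose from 11 to 19, while the count of all genes called in either direction went from 1978 to 2121. The added genes were Slc7a11, Nqo1, Cbr1, Cbr3, Ephx1, Gsta1, Gstm1 and Gstm3, whose fold changes were almost the same as before, as for Cbr3 (3.85, SE 0.57, adjusted p = 0.00281) and Nqo1 (2.22, SE 0.52, adjusted p = 0.0223).

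Whether the effects of the viruses differed was tested as the overexpression effect minus the knockdown effect. Of the 40 genes, 7 (17.5%) had a larger overexpression effect and 0 a smaller one, against 6.62% of all tested genes in either direction, 3.72% up and 2.9% down. They were Srxn1, Gclc, Gstm4, Gsr, Ugdh, Pgd and Txnrd1, with differences of 1.45 to 3.88 on the log2 scale. In all 7, the overexpression effect was positive and past its own threshold, and the knockdown effect was negative and not past it. The other 4 genes that rose under the ANG8 virus did not pass the test of the difference, and all 4 had positive fold changes in each arm. The difference was 0.88 for Hmox1 (SE 0.39, adjusted p = 0.197), 0.66 for Gpx4 (SE 0.29, adjusted p = 0.186), 0.70 for Prdx6 (SE 0.32, adjusted p = 0.207) and 1.70 for Gstm2 (SE 0.76, adjusted p = 0.229). Without shANG8 replicate 3 the count was 17 in place of 7, while that of all genes called was 1227 in place of 972. That library was set apart for its high levels of these genes, so the count of 17 is a description.

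As a check on the control viruses, shCtrl was compared with Ad_GFP. By edgeR 0 of the 40 genes and 0% of all tested genes passed, 6 of the 40 had an unadjusted p under 0.05 (Sqstm1, Txnrd1, Prdx1, Gsta3, Gstm4 and Mgst1), and none of the alternatives, DESeq2 and limma voom included, called any of the 40. All 3 shCtrl libraries lay above all 3 Ad_GFP libraries for 7 genes (17.5%), namely Sqstm1, Gsr, Txnrd1, Gstm4, Gstp1, Mgst1 and Cat, and below for 0, while among all tested genes 16.1% did not overlap, 7.66% above and 8.45% below. The median fold change of the 40 genes was 0.18. Angptl8, which is not one of the 40, averaged 299 CPM with shCtrl and 89.1 with Ad_GFP. All 3 shCtrl libraries of Angptl8 lay above all 3 Ad_GFP libraries, but the comparison did not pass the test (adjusted p = 0.338). The shCtrl mean was also above the ANG8 mean of 217 CPM, with libraries that overlapped. The control groups thus differed in measured Angptl8 level, and its bearing on the 40 genes was not tested.

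Some of the 40 genes had the same library number on top in every group. In 13 of the 40 (32.5%) replicate 3 was the highest of its group in all 4 groups, which held for 3.36% of all tested genes. These were Gclm, Taldo1, Tkt, Nqo1, Cbr1, Cbr3, Ephx1, Gsta1, Gsta2, Gsta4, Gstm1, Gstm2 and Gstm3. Replicate 2 was the highest in all groups for Mafg alone, against 3.32% of all tested genes, and replicate 1 for 0 genes, against 1.14%. Within shANG8 the highest library of Cbr3 exceeded the lowest 125-fold, a ratio that rests on 3 counts in the lowest and has an exact 95% interval of 42.4 to 608 for counting error only. The ratio was 101-fold for Gsta1, 33.0-fold for Gstm3, 12.1-fold for Gsta2, 7.36-fold for Nqo1, 6.17-fold for Gsta4 and 5.82-fold for Gstm1, and Slc7a11 and Gpx2 had libraries at 0. Relative to the mean of Ad_GFP, the median log2 level of the 40 genes was -0.07, -0.21 and 0.20 in Ad_GFP replicates 1, 2 and 3, and 0.76, 0.68 and 1.20 in ANG8. It was 0.09, 0.04 and 0.46 in shCtrl, and -0.17, -0.24 and 0.56 in shANG8. All ANG8 libraries stood above all others by this median, and replicate 3 stood highest in each group. The labels give no reason for a shared property of the libraries numbered 3, and none was tested.

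**Figure D4:**
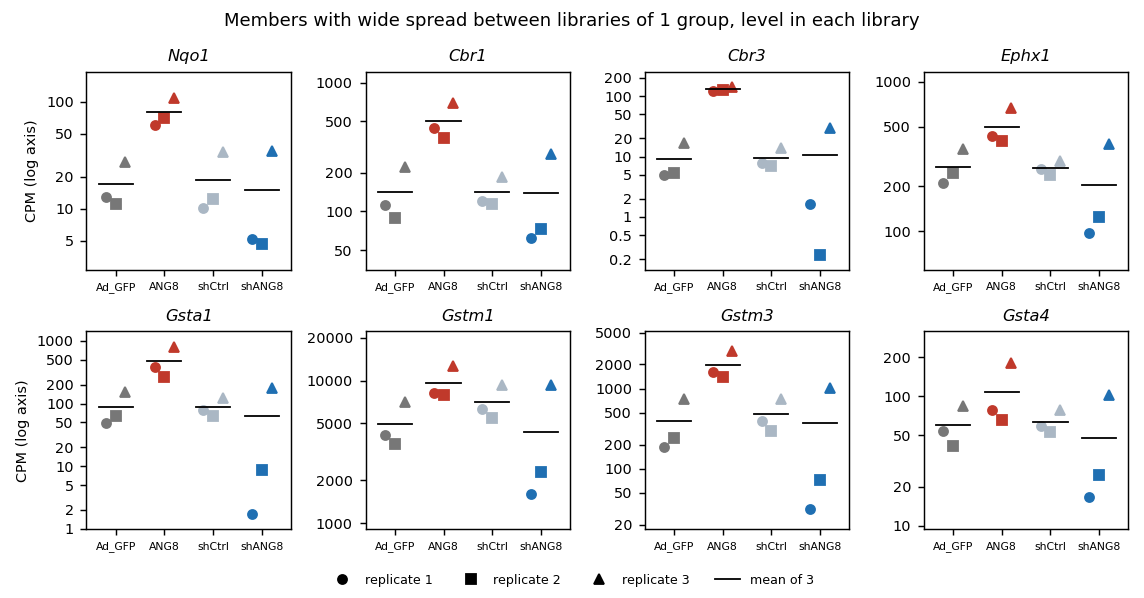
Level (y axis, CPM, log axis) in each of the 12 libraries of 8 genes with a wide spread within groups, with the mean of 3 as a line and the replicate number as the shape of the point. All 8 are among the 13 genes in which replicate 3 was the highest of every group, so that trait follows from the choice of panels. Osgin1, not shown, also spread widely, with replicate 3 the lowest in shCtrl (426, 268 and 118 CPM). In shANG8 the libraries of Gsta1 run from 1.74 to 176 CPM.

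Known NRF2 binding sequences were looked for around the gene starts. RefSeq windows of GRCm38.p6, from 250 bases before to 50 after a start, were at hand for 35 of the 40 genes (44 windows), and Gclc, Gsr, Prdx6, Hmox1 and Gsta4 had none. On both strands, the core of the antioxidant response element, TGACNNNGC, was found in 12 of the 44 windows (27.3%) and in 12.4% of all 32851 windows. The longer form of this core, which has A as its next base, was in 3 windows (6.82%, against 3.04%), those of Gsta3, Pgd and Txnrd1. The related sequence TGAGTCA, bound by AP-1 factors, was in 5 (11.4%, against 5.20%). TGAGNNNGC, added after the Srxn1 sequence had been read, was in 6 (13.6%, against 17.6%). TGAGTCA can overlap each of the other motifs, and any match to the longer form is also one to TGACNNNGC. Of the 8 genes with a window that passed the test in ANG8, 5 held TGACNNNGC, namely Srxn1, Txnrd1, Pgd, Ugdh and Mgst1, the last of which fell. These were 5 of the 16 windows of the 8 genes, against 12 of the 44 above. That of Srxn1 lay at position 29 after the start, beyond the stretch shown. Stretches of 30 bases around the match are shown for Txnrd1 and Ugdh, which rose, and for Prdx1 and Gclm, which did not pass. They are read in the direction of the gene, with TGACNNNGC or, for Txnrd1, its longer form in capitals, which appears as its reverse complement where the match is on the opposite strand.
Txnrd1: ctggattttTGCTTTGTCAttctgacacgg
Ugdh: gcggagcccgTGACTTAGCtggagctgatt
Prdx1: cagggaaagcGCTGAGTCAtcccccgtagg
Gclm: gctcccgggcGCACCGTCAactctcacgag

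The Txnrd1 stretch is at chr10:82859104-82859133, by an alternative start within the gene, with the match at position -92. That of Ugdh is at chr5:65435955-65435984 (match at -132), that of Prdx1 at chr4:116685456-116685485 (-133) and that of Gclm at chr3:122245413-122245442 (-134). In Prdx1 the match contains TGAGTCA read on the gene's strand. The genes with a match thus included ones that rose, ones that did not pass and one that fell. No binding was measured, so a match describes letters only.

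The wider pathway was described with 72 further genes, all tested, in 6 lists. Under the ANG8 virus 7 rose and 5 fell, near the shares of all tested genes (7.08% up and 6.39% down), and their median fold change was -0.04, so the genes below are single calls and not a result about the lists. The knockdown and the control virus comparison each called 0. By edgeR the list of 19 further NRF2-linked detoxication and export genes had 4 that rose and 0 that fell. Abcc4, an exporter of conjugates and bile acids, was 0.316, 1.26 and 0.941 CPM in Ad_GFP, 12.7, 16.5 and 20.6 with the ANG8 virus, 1.83, 1.09 and 1.44 with shCtrl and 2.12, 0.865 and 2.25 with shANG8. All ANG8 libraries were far above the rest, and Abcc4 rose by 4.31 (SE 0.44, adjusted p = 4.39e-05), in all 20 alternatives too. Blvrb, a biliverdin reductase that acts after heme oxygenase, rose from 161 ± 34.8 to 453 ± 123 CPM (1.49, SE 0.34, adjusted p = 0.0122), and the exporter gene Abcc3 from 80.9 ± 9.68 to 139.8 ± 9.76 (0.79, SE 0.21, adjusted p = 0.0207).

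Of 14 other glutathione genes 2 rose and 2 fell. Gss, glutathione synthetase, the step after Gclc, was 119, 90.6 and 131 CPM in Ad_GFP and 229.5, 232 and 286 in ANG8. The groups did not overlap, and Gss rose by 1.14 (SE 0.19, adjusted p = 0.00137), again in all 20 alternatives. Its counts are uncertain, because 17.8% of its 50-base words also occur elsewhere. Gpx3, the plasma glutathione peroxidase, rose from 11.6 ± 2.09 to 28.2 ± 2.55 CPM (1.28, SE 0.33, adjusted p = 0.0201), while Chac2, which degrades glutathione, fell by 0.63 (SE 0.18, adjusted p = 0.0284). Of 14 other glutathione S-transferases 1 rose and 2 fell. Gstp2 rose by 1.92 (SE 0.43, adjusted p = 0.0114), but 50.4% of its 50-base words also occur elsewhere, so its counts are uncertain. Gstk1, a mitochondrial and peroxisomal transferase, fell by 0.97 (SE 0.25, adjusted p = 0.0165) and Gstz1, of tyrosine breakdown, fell by 0.61 (SE 0.17, adjusted p = 0.0257). For Gstz1 17.2% of the 50-base words also occur elsewhere, so its counts are uncertain too.

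Among 7 other regulators Bach1, a repressor that competes with NRF2 for the same elements and represses Hmox1, fell from 43.5 ± 4.16 to 30.4 ± 4.23 CPM (-0.52, SE 0.16, adjusted p = 0.0378), and 0 rose. None of 11 other thioredoxin and peroxiredoxin genes and none of 7 other NADPH genes passed by edgeR. These calls were less steady than those of Abcc4 and Gss. Leaving out 1 library ended that of Bach1 in 6 of 12 cases (adjusted p up to 0.134), and in at least 1 case those of Blvrb (up to 0.0633), Abcc3 (0.0907), Gpx3 (0.0957), Chac2 (0.137), Gstp2 (0.0585), Gstk1 (0.0818) and Gstz1 (0.117).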

How the data were processed

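The table the authors deposited gives unnormalized read counts for each gene, with 1 column for each of the 12 libraries and gene lengths in a column of another kind, per the file headers. The RNA was Trizol-extracted and made into libraries with a NEBNext Ultra kit, per the labels' protocols. Tools listed in the submitters' processing notes are featureCounts 1.5.0-p3 and CASAVA 1.8.2, with mm9 as the build. Yet 39 of the 40 genes have identical coordinates in GENCODE vM21, so positions are given as GRCm38. The aligner and the use of strand in counting are not stated there.

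From the counts, genes were filtered with filterByExpr in edgeR 4.0.16 (R 4.3.3), which kept 14686 genes with at least 99.9% of the counts of each library, and library sizes were scaled by TMM. A robust quasi-likelihood fit over all 12 libraries gave 4 contrasts: ANG8 minus Ad_GFP, shANG8 minus shCtrl, their difference, and shCtrl minus Ad_GFP. The SE is the absolute log2 fold change divided by the square root of F. The scripts were tested on simulated data. Alternatives were other scalings, DESeq2, limma voom, no filter, fits of the compared groups alone, a replicate block, the mitochondrial share as a covariate and leaving out each library.

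The 40 genes and all other lists were chosen with earlier results of these data known. Values in every library are given for genes called in any comparison and for the regulators, and for others picked after their values were seen; of the 72 further genes, at most 3 called genes a list with the smallest p are named. A gene is said to have uncertain counts where at least 10% of its 50-base words occur in other transcripts of vM21 or its exons overlap another gene by that share, which held for 13 of the 40. Counts of libraries of the same group differed by far more than sampling noise (chi-square per gene of 13.9 or more), so none was a copy of another of its group.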

Additional observations from a re-analysis of the deposited data

Results flagged for a closer look

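For 7 of the 40 genes the effect of the ANG8 virus over Ad_GFP differed from the effect of the shANG8 virus over shCtrl, in a test of the difference between these effects itself (edgeR, 3 libraries a group, adjusted over all 14686 genes). For Srxn1 the difference was 3.88 on the log2 scale (SE 0.53, adjusted p = 0.00206), and for Gclc it was 2.54 (SE 0.41, adjusted p = 0.00284). Gsr differed by 1.67 (SE 0.25, adjusted p = 0.00202) and Txnrd1 by 1.45 (SE 0.27, adjusted p = 0.00583). The difference was 1.57 for Pgd (SE 0.31, adjusted p = 0.00784), 1.84 for Gstm4 (SE 0.40, adjusted p = 0.0149) and 1.63 for Ugdh (SE 0.41, adjusted p = 0.0263). All 20 alternative fits called 6 of the 7. That of Ugdh was lost in 7 of them, with mitochondrial share added as a covariate (adjusted p = 0.0628) and without Ad_GFP replicate 1 (0.0671), Ad_GFP replicate 2 (0.0625), ANG8 replicate 1 (0.0652), ANG8 replicate 2 (0.0524), shCtrl replicate 3 (0.0609) or shANG8 replicate 2 (0.0608).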

How the results depend on the processing

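With 3 libraries a group, calls of genes with a wide spread depend on single libraries. Of the 12 genes called under overexpression, 8 were called in all 20 alternatives, and no called gene among the 40 changed sign in any. Genes called as rising numbered 11 with other size factors, 11 with total counts, 13 by DESeq2, 14 by limma voom, 13 with no filter and 14 with a covariate for the mitochondrial share. With the compared groups alone 17 rose and 0 fell. Genes called as falling numbered 0 with total counts, 2 by DESeq2 (Mgst1 and Sod1), 2 by limma voom, 2 with no filter and 0 with the covariate. Total counts moved the split of all calls under overexpression from 1040 up and 938 down to 1095 up and 643 down.

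Leaving out each library gave 8 to 19 of the 40 genes as rising, 19 without shANG8 replicate 3, and 0 to 2 as falling. It gave 995 to 2164 of all genes under overexpression, with 995 without ANG8 replicate 1, 1307 without ANG8 replicate 2, 1080 without Ad_GFP replicate 1 and 1133 without Ad_GFP replicate 2. Under knockdown it gave 0 to 2 of the 40 genes and 21 to 39 of all genes, and for the difference between arms 6 to 17 of the 40 and 473 to 1227 of all genes, against 972 with all libraries. The comparison of control viruses gave 0 to 0 of the 40 and 0 to 10 of all genes. All-gene counts under knockdown, 28 with the reported settings, were 102 by DESeq2, 132 with no filter and 47 with the covariate. For the difference between arms they were 1541 by DESeq2 and 1510 with no filter, and 11 of the 40 were called with the covariate. For the control viruses they were 38 by DESeq2 and 96 with no filter. The causes were not tested.

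The labels give no shared origin for libraries of the same number, and deviations of same-numbered libraries had correlations of -0.09 to 0.31 over genes, not all above 0.1, so the numbers were not treated as pairs. The data hint that same-numbered libraries may share something. Their median correlation was 0.14, against -0.07 for libraries of different numbers (-0.26 to 0.14). Also, 11 of 12 libraries correlated best with one of their own number. With a replicate block, 18 of the 40 genes rose and 2 fell under overexpression, where 2600 of all genes passed against 1978 without it, 55 of all genes passed under knockdown, 13 of the 40 and 1550 of all genes for the difference between arms, and 5 of all genes for the control viruses.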

Other observations

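Of the 11 genes that rose under the ANG8 virus, the median log2 level relative to the mean of Ad_GFP was 0.05, -0.19 and 0.22 in Ad_GFP replicates 1, 2 and 3, and 1.49, 1.27 and 1.59 in ANG8. In shCtrl it was 0.27, 0.23 and 0.51, and in shANG8 it was -0.13, -0.02 and 0.65. The levels in ANG8 follow from the choice of the genes, and the hairpin libraries entered that choice through the shared spread, so these medians are a description. In both hairpin groups the library numbered 3 was the highest. Replicate 3 was the highest of its group for 23 of the 40 genes with Ad_GFP, 30 with ANG8, 25 with shCtrl and 31 with shANG8, and for 28.3%, 34.99%, 36.6% and 31.5% of all 14686 tested genes in the same groups.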
